A study of Mus musculus with 20 samples.

Results

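Expression of 10 genes of the transforming growth factor-beta (TGF-beta) pathway was examined in the mouse uterus on the evening before embryo implantation. They were the ligand genes Tgfb1, Tgfb2 and Tgfb3, the latency gene Ltbp1, the receptor genes Tgfbr1 and Tgfbr2, the signal transducer Smad3 and the feedback genes Smad7, Pmepa1 and Skil. The genes were selected by symbol, and all 10 were found among the 45777 genes of the deposited RNA-seq table and were among the 18706 genes that could be tested. The uteri came from pregnant wild-type B6D2F1 females aged 8 to 12 weeks and were taken at 18:00 on day 3.5, with 5 libraries of polyA RNA in each of 4 groups. Control animals received no treatment. The implantation failure (IF) group received RU486 (3 mg/kg, under the skin) on the morning of day 3.5, and RU486 is an antagonist of the progesterone and glucocorticoid receptors. The PBMC group received the same RU486 injection and, on day 1.5, an injection into the uterine horns of peripheral blood mononuclear cells from non-pregnant mice that had been cultured for 24 h. In the PBMC-hCG group, human chorionic gonadotropin (hCG, 5 IU/mL) was present in that culture. Animals given medium alone were not analysed here, so the cells and the act of injection cannot be told apart. The labels number the replicates and tie none to a named animal, so p-values measure the spread between these libraries.

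TGF-beta ligands are secreted in a latent form, bound to their own propeptide and to a latent TGF-beta binding protein such as the product of Ltbp1, and are released by integrins, proteases or thrombospondin. The free ligand binds the receptor encoded by Tgfbr2, which activates the receptor encoded by Tgfbr1, and this kinase phosphorylates SMAD2 and SMAD3, which enter the nucleus with SMAD4. The pathway switches on its own brakes: SMAD7 blocks the receptors, PMEPA1 holds SMAD proteins away from the receptor, and SKIL represses SMAD target genes. In the uterus the pathway is known for its part in stromal differentiation, matrix remodelling and immune tolerance around implantation. RNA levels do not show how much ligand is active, and no protein was measured in these data.

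In GRCm38.p6, Tgfb1 lies at chr7:25687002-25705077, Tgfb2 at chr1:186622787-186709697, Tgfb3 at chr12:86056743-86079041, Ltbp1 at chr17:75005480-75392512, Tgfbr1 at chr4:47353222-47414926 and Skil at chr3:31095058-31122923. Tgfbr2 (chr9:116087695-116175363) and Smad3 (chr9:63646766-63757994) share chromosome 9, and Pmepa1 lies at chr2:173224458-173276731. All 9 are annotated as protein coding.

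Start-site sequences are shown for the ligand and latency genes that stayed above control in all 3 RU486 groups without overlap, Tgfb2 and Ltbp1. RefSeq windows of 300 bases (250 before to 50 after a start, GRCm38.p6) were used for 6 of the 10 genes, 8 windows in all. Capitals mark CAGAC or its reverse complement GTCTG, the core that SMAD3 and SMAD4 bind. The sequences run 5′ to 3′ on the strand of the gene, from chr1:186705940-186706239 (minus strand) for Tgfb2 and from chr17:75005279-75005578 and chr17:75178531-75178830 (plus strand) for the first and the second Ltbp1 start.
Tgfb2: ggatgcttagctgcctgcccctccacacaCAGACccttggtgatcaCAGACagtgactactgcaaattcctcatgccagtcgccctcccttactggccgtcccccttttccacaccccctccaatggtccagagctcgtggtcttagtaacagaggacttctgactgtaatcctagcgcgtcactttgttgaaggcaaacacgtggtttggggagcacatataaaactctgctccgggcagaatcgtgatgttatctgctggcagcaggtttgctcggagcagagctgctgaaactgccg
Ltbp1, first start: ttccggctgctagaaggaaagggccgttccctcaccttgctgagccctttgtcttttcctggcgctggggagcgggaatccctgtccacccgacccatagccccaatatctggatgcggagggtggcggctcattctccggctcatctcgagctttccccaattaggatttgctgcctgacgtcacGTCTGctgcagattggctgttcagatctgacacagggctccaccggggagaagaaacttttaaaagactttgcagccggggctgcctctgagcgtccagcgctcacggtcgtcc
Ltbp1, second start: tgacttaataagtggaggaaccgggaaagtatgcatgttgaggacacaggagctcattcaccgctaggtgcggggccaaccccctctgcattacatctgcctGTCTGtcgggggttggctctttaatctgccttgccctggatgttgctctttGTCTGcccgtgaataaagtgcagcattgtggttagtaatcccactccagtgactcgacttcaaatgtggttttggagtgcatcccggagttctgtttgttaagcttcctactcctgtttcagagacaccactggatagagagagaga
The Tgfb2 start used here lies inside the gene span and not at its 5′ end, chr1:186709697. The SMAD core began at -221 and -204 relative to this Tgfb2 start, at -64 relative to the first Ltbp1 start, and at -148 and -97 relative to the second. It was present in 5 of the 8 windows, among them those of Tgfbr2 and the second Tgfbr1 start, and in 49.6% of all 32851 windows of this length. The element shared by the progesterone and glucocorticoid receptors, searched on both strands as GNACA, any 3 bases and TGTNC in a row, was in 0 of the 8 windows and in 0.475% of all windows. The estrogen element, GGTCA, any 3 bases and TGACC, was likewise in 0 of the 8 windows and in 0.07% of all. The letters TATAAA, searched on the strand of the gene, occurred at -31 relative to the Tgfb2 start and in no other window of these genes, against 8.32% of all windows. These matches describe the letters of the windows, and binding was not measured.

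The libraries were checked against their labels before the genes were compared. Markers of the uterus were well expressed, with means over the 20 libraries of 183 TPM for Hoxa10, 144 TPM for Esr1 and 136 TPM for Hoxa11. Of 8 ovary and oviduct markers, 2 were listed at 0 in every library, Cyp19a1 and Zp3. The other 6 were detected, led by Foxl2 (mean 45.6 TPM), Ovgp1 (11.9 TPM) and Inha (9.05 TPM). Amh was low, with group means of 0.259 to 0.391 TPM. Cyp19a1, Zp3 and Amh were named after their values had been seen. In IF versus control Foxl2 rose by 1.66 (adjusted p = 2.38e-07 by limma) and Ovgp1 fell by 0.93 (adjusted p = 0.0314) on the log2 scale. The part of neighbouring tissue in the results was not tested. TPM is a transcript abundance scaled for transcript length and to a fixed total per library (999989 to 999999 here), so levels can be compared between genes but the depth is unknown. Control replicate 2 stood apart from its group with a summed smooth muscle marker level of 2410 TPM, the lowest of a control range reaching 5460 TPM, and with the highest epithelial sum, 1420 TPM. IF replicate 3 likewise had the lowest smooth muscle sum (2650 TPM) and the highest epithelial sum (1430 TPM) of its group. Both libraries also had the lowest stromal marker sums of their groups (3280 and 5340 TPM). The same held for the sums of the TGF-beta target genes listed below (7360 and 9930 TPM). Replicate 5 of the control, IF and PBMC groups was the highest of its group for 6, 5 and 6 of the 10 genes, with Tgfb1, Tgfbr1, Smad7, Pmepa1 and Skil among them in all 3 groups. Values without these libraries are given for a part of the results that rest on them.

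In the control uterus the receptor gene Tgfbr2 was by far the most abundant of the 10 genes, at 178 ± 23.9 TPM (SD, n = 5), and Smad7 was the least abundant, at 7.76 ± 0.999 TPM (SD, n = 5). Tgfb1 led the ligands at 33 ± 3.66 TPM, followed by Tgfb3 at 22.4 ± 6.53 TPM and Tgfb2 at 14.4 ± 0.975 TPM (SD, n = 5 each). The summed ligand level was 66.6 TPM in the median control library, 108 TPM in the IF group, 95 TPM in the PBMC group and 95.3 TPM in the PBMC-hCG group. All 10 genes had their lowest group mean in the control group. In 6 of them, Ltbp1, Tgfb1, Tgfbr1, Smad7, Pmepa1 and Skil, the order was control, PBMC-hCG, PBMC and IF from low to high, although the PBMC mean passed the test against neither the IF nor the PBMC-hCG mean in any of the 10. For Ltbp1 the PBMC-hCG, PBMC and IF means were nearly equal, at 50.7, 51 and 52 TPM. The plot of TPM by group shows each library.

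**Figure D1:**
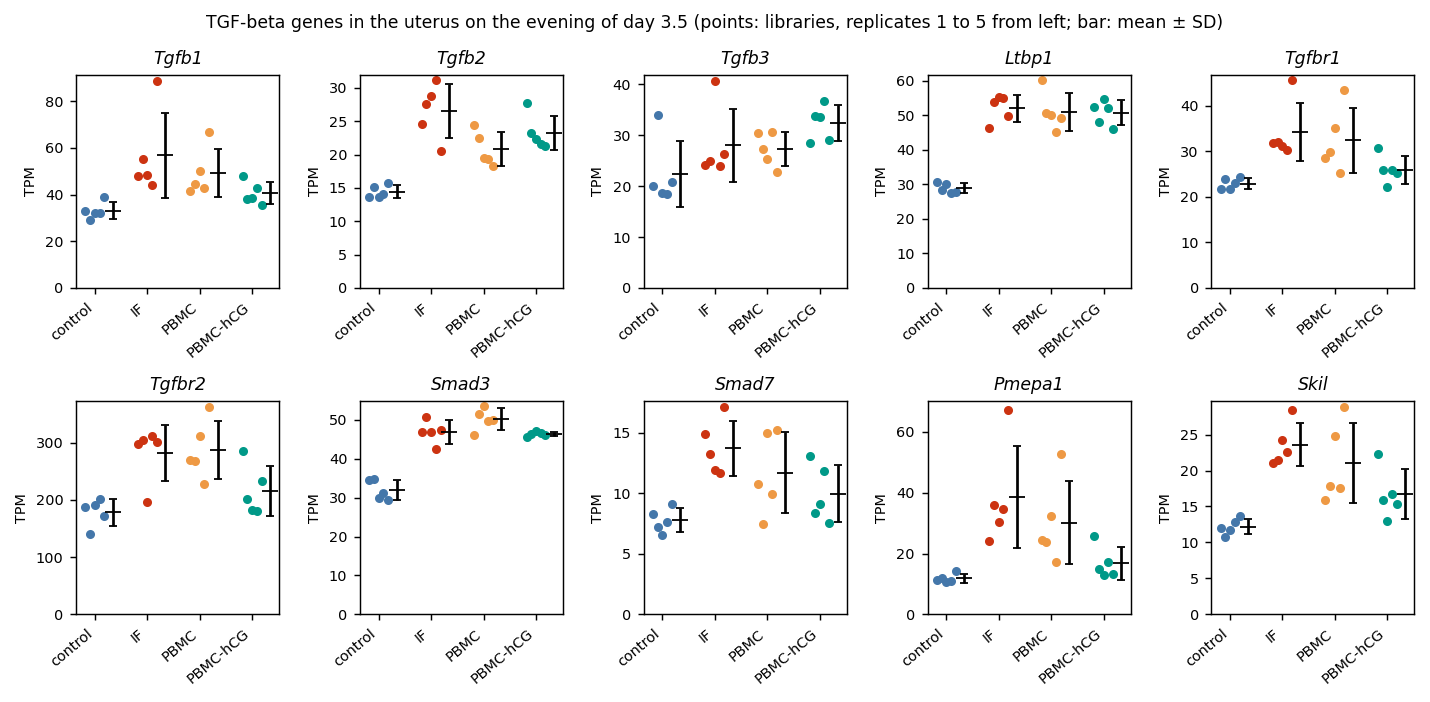
TPM of the 10 genes in each library (y axis, from 0) by group (x axis), with replicates 1 to 5 from left to right and the mean ± SD (n = 5) beside them. The control mean is the lowest of the 4 for every gene, 1 control library is high for Tgfb3 (34 TPM), and single high libraries stand out in the IF group for Tgfb1, Tgfbr1 and Pmepa1.

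IF was compared with control to ask which of these genes differed after RU486 in pregnancy. Of the 10 genes, 9 were higher in the IF group at an adjusted p-value under 0.05 (limma on log2(TPM + 0.1), Benjamini-Hochberg adjustment over all 18706 genes) and none were lower, also at a raw p-value. Among all genes tested, 13.4% were higher by the same rule and 8.53% lower, 21.9% in all. The 10 genes were chosen with earlier results of these data known, so the shares are a reference and no test of the set. In 8 of the 10 genes, every IF library lay above every control library, which held for 8.55% of all genes. The median log2 fold change was 0.78 over the 10 genes and 0.02 over all genes. When each library was left out in turn, 9 or 10 of the 10 genes passed. The number of genes called across the table was 2509 higher and 1595 lower with TPM as deposited, and 2123 higher and 2083 lower after median ratio scaling, under which the 9 calls for these genes were also made. In bulk tissue, a change in the number of cells of a type and a change in RNA per cell cannot be told apart.

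The feedback genes Pmepa1 and Skil had the largest rises of the 10 genes. Pmepa1 was at 11.4, 11.8, 10.6, 10.8 and 14.3 TPM in control replicates 1 to 5 and at 24.2, 35.9, 30.3, 34.7 and 67.4 TPM in the IF replicates. Every IF library was above every control library, and IF replicate 5 was far above the other 4. The log2 fold change was 1.62 (SE 0.27, adjusted p = 0.000313), or 3.07-fold, and it was 1.39 to 1.76 with each library left out in turn. Pmepa1 was the 1 gene of the 10 that met the criterion of the study's methods, a fold change of at least 2 with a raw p-value under 0.05, which 2.12% of all genes met as rises. The study also picked Pmepa1 for PCR from these libraries, so it is not an independent choice.

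The PCR primers show which stretch of Pmepa1 that assay reads. Both matched coding exons of the transcript Pmepa1-201 (GRCm38, minus strand), the forward primer in exon 1 at chr2:173276104-173276124 and the reverse primer in exon 2 at chr2:173234362-173234381, with a product of 137 bases across the intron.
Pmepa1 forward: aactgccagcgctctttgttc
Pmepa1 reverse: cgggctgacagcttgtagtg
The forward primer was found in 2 and the reverse primer in 3 of the 3 annotated Pmepa1 transcripts. TPM values here are per gene and do not separate the transcripts.

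Skil, whose product SnoN represses SMAD target genes, was at 12, 10.8, 11.7, 12.8 and 13.7 TPM in control replicates 1 to 5. In the IF replicates it was at 21.1, 21.5, 24.3, 22.6 and 28.4 TPM. The groups did not overlap, and the log2 fold change was 0.94 (SE 0.15, adjusted p = 0.000235). Smad7, the inhibitory SMAD, was at 8.32, 7.17, 6.54, 7.64 and 9.11 TPM in control and 14.9, 13.2, 11.9, 11.7 and 17.1 TPM in IF libraries. Again each IF value exceeded each control value, with a log2 fold change of 0.81 (SE 0.19, adjusted p = 0.00402).

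Of the 3 ligands, Tgfb1 and Tgfb2 rose and Tgfb3 did not pass. Tgfb2 was at 13.6, 15.1, 13.6, 14.1 and 15.8 TPM in control replicates 1 to 5 and 24.5, 27.5, 28.8, 31.1 and 20.5 TPM in the IF replicates. All IF libraries were above control, with replicate 5 the lowest of them, and the log2 fold change was 0.86 (SE 0.11, adjusted p = 1.36e-05). Tgfb1 was at 32.9, 29.2, 31.9, 31.9 and 39 TPM in control and 48, 55.4, 48.3, 44.2 and 88.4 TPM in IF libraries. The groups did not overlap although IF replicate 5 lay far above the rest, and the log2 fold change of 0.74 (SE 0.16, adjusted p = 0.00252) was 0.57 to 0.82 with each library left out in turn.

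Tgfb3 was at 20.1, 34, 18.7, 18.5 and 20.9 TPM in control replicates 1 to 5 and 24.1, 24.9, 40.7, 24 and 26.4 TPM in the IF replicates. The groups overlapped only through control replicate 2, since the other 4 control libraries were below every IF library. The log2 fold change was 0.33 (95% interval -0.01 to 0.67, adjusted p = 0.162) with all libraries and 0.49 (adjusted p = 0.0117) without control replicate 2. Without control replicate 2 and IF replicate 3 together it was 0.34 (adjusted p = 0.0131), an alternative added after the data had been seen. In those 2 libraries, as given above, smooth muscle and stromal marker sums were the lowest and epithelial sums the highest of their groups. The part of tissue makeup in the Tgfb3 values was not tested. Ligand composition is shown in the plot of ligand TPM per library.

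**Figure D2:**
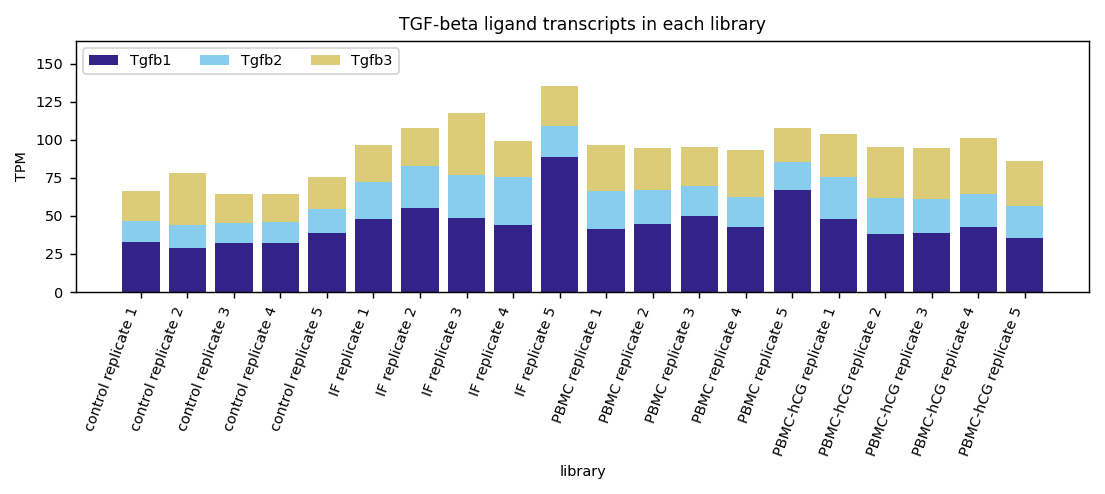
Stacked TPM of Tgfb1, Tgfb2 and Tgfb3 (y axis, from 0) in each of the 20 libraries (x axis). The summed level was 64.2 to 78.2 TPM in control libraries and 96.6 to 135 TPM in IF libraries, and the Tgfb3 segment stands out in control replicate 2 (34 TPM) and IF replicate 3 (40.7 TPM) within their groups.

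Ltbp1, which encodes a protein that tethers latent TGF-beta to the matrix, had the smallest p-value of the 10 genes. It was at 30.6, 28.3, 30.2, 27.5 and 27.7 TPM in control replicates 1 to 5 and at 46.3, 53.8, 55.3, 55 and 49.7 TPM in the IF replicates. The groups were far apart with little spread, and the log2 fold change was 0.84 (SE 0.07, adjusted p = 2.38e-07). It moved between 0.82 and 0.88 when each library was left out.

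Among the receptors, Tgfbr2, the ligand-binding receptor, was at 187, 140, 191, 202 and 172 TPM in control replicates 1 to 5. In the IF replicates it was at 297, 304, 196, 311 and 301 TPM. IF replicate 3 fell within the control range and the other 4 were above it, and the log2 fold change was 0.65 (SE 0.15, adjusted p = 0.00463). Tgfbr1, the kinase receptor that it activates, was at 21.6, 23.9, 21.6, 23.1 and 24.4 TPM in control and 31.8, 31.9, 31.2, 30.3 and 45.6 TPM in IF libraries. No values overlapped, IF replicate 5 was the high one, and the log2 fold change was 0.56 (SE 0.13, adjusted p = 0.00454). The ratio of Tgfbr2 to Tgfbr1 TPM had a median of 8.66 in control and 9.33 in IF libraries, with overlapping ranges of 5.88 to 8.82 and 6.28 to 10.3.

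Smad3, the transducer phosphorylated by these receptors, was at 34.6, 34.7, 29.9, 31.3 and 29.5 TPM in control replicates 1 to 5. In the IF replicates it was at 47, 50.7, 46.8, 42.4 and 47.5 TPM. All IF values exceeded all control values, and the log2 fold change was 0.55 (SE 0.06, adjusted p = 2.37e-06), the smallest size of the 9 rises with the smallest standard error.

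**Figure D3:**
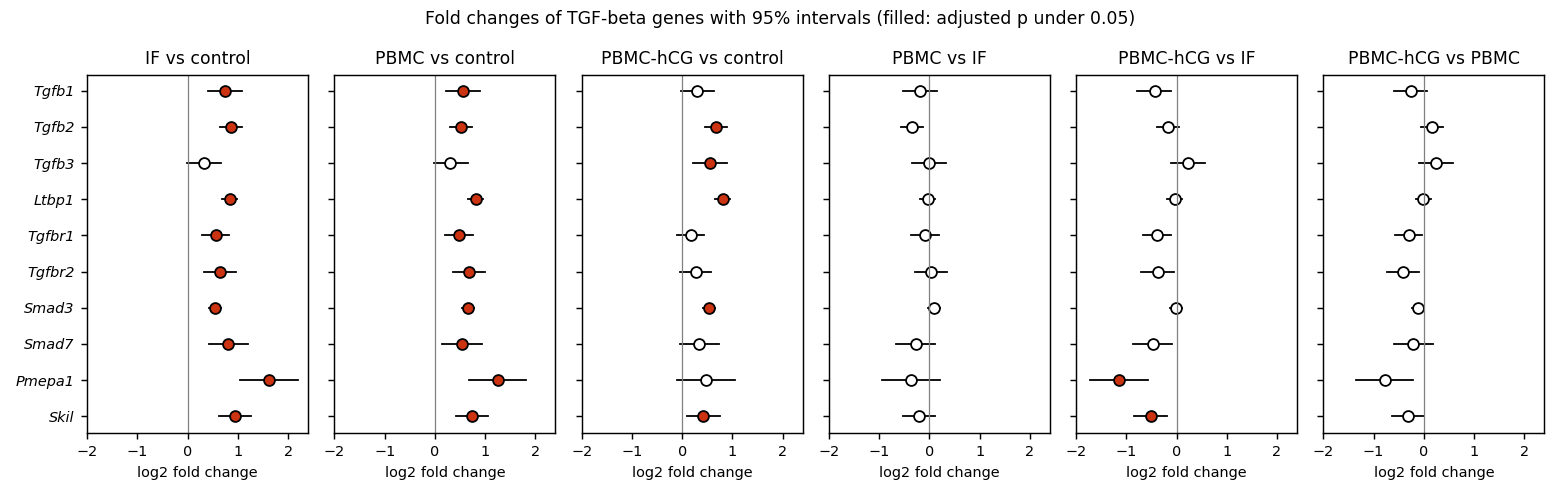
Log2 fold change (x axis) of each of the 10 genes (y axis) in the 6 comparisons, with 95% intervals from limma and points filled where the adjusted p-value was under 0.05. In the 2 left panels 9 points are filled and to the right of 0, and in PBMC-hCG versus IF the filled points are Pmepa1 and Skil, to the left of 0.

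PBMC-hCG was compared with IF to ask which genes differed when hCG-cultured cells had been given before RU486. Pmepa1 and Skil were lower in the PBMC-hCG group at an adjusted p-value under 0.05, 2 of the 10 genes against 5.99% of all genes lower and 13.6% called in all by limma. At a raw p-value under 0.05, 6 of the 10 were lower, against 14.3% of all genes. The estimate was below 0 for 9 of the 10 genes, with a median log2 fold change of -0.39 against 0.05 over all genes. No gene of the 10 had all PBMC-hCG libraries below all IF libraries, which held for 2.19% of all genes. Among all genes, 1423 were called higher and 1121 lower, and 1181 higher and 1467 lower after median ratio scaling.

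These 2 calls depended on single libraries. They were kept without IF replicate 1, and 5 and 6 of the 10 genes passed without IF replicate 3 and PBMC-hCG replicate 1, respectively. Calls across the table rose as well in the latter 2 fits, to 5061 and 4166 genes, against 2544 with all libraries. None of the 10 passed without IF replicate 2, 4 or 5 or PBMC-hCG replicate 2, 3, 4 or 5, and in those fits limma called between 0 and 34 genes in the whole table. The estimates moved less, with a log2 fold change of -1.31 to -0.92 for Pmepa1 and -0.62 to -0.43 for Skil over the 10 fits. Pmepa1 met the fold criterion as a fall, as did 1.22% of all genes, but no longer did so without IF replicate 5.

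Pmepa1 was at 25.9, 15, 12.8, 17.3 and 13.2 TPM in PBMC-hCG replicates 1 to 5, against 24.2 to 67.4 TPM in the IF group. PBMC-hCG replicate 1 was the 1 library that reached into the IF range, and the other 4 lay below it. The log2 fold change was -1.15 (SE 0.27, adjusted p = 0.0287), or 2.21-fold lower. Without IF replicate 5 it was -0.92 (adjusted p = 0.0989). Skil was at 22.3, 15.9, 13, 16.8 and 15.3 TPM, and again PBMC-hCG replicate 1 alone entered the IF range of 21.1 to 28.4 TPM. Its log2 fold change was -0.51 (SE 0.15, adjusted p = 0.0401), and -0.44 (adjusted p = 0.128 by limma) without IF replicate 5. PBMC-hCG replicate 1 was the highest of its group for 7 of the 10 genes.

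The receptors and 2 further genes were lower at a raw p-value under 0.05 but did not pass adjustment. Tgfbr1 was at 30.6, 25.8, 22.1, 25.8 and 25.2 TPM in PBMC-hCG replicates 1 to 5, with a log2 fold change of -0.39 against IF (adjusted p = 0.0523). Tgfbr2 was at 285, 201, 182, 181 and 233 TPM, with a log2 fold change of -0.38 (adjusted p = 0.0863). In both, replicate 1 was the highest, and the PBMC-hCG and IF ranges overlapped. Smad7 was at 13.1, 8.35, 9.14, 11.8 and 7.52 TPM, and its log2 fold change was -0.47 (adjusted p = 0.0834). Tgfb1 was at 47.8, 38.3, 38.7, 43 and 35.4 TPM, and its log2 fold change was -0.44 (adjusted p = 0.0651). Tgfb1, Tgfbr1 and Tgfbr2 passed without IF replicate 3 (adjusted p = 0.0426, 0.0369 and 0.0169) and without PBMC-hCG replicate 1 (0.0415, 0.0274 and 0.0287), and Smad7 passed without the latter (0.037). For each of these 4 genes the 95% interval lay below 0, from -0.86 for the lowest bound of Smad7 to -0.06 for the highest bound of Tgfbr2.

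Ltbp1, Smad3, Tgfb2 and Tgfb3 gave estimates nearer to 0. Ltbp1 was at 52.4, 47.9, 54.7, 52.1 and 46.1 TPM in PBMC-hCG replicates 1 to 5 and differed from IF by -0.04 on the log2 scale (95% interval -0.19 to 0.11). Smad3 was at 45.7, 46.4, 47.1, 46.7 and 46.1 TPM, the tightest group of any gene here, and differed by -0.01 (95% interval -0.13 to 0.11). These intervals exclude a fall as large as that estimated for Skil. Tgfb2 was at 27.7, 23.2, 22.3, 21.6 and 21.3 TPM, with a log2 fold change of -0.18 (95% interval -0.40 to 0.04). Tgfb3 was at 28.5, 33.8, 33.6, 36.8 and 29.1 TPM, and it was the 1 gene of the 10 with an estimate above 0 (0.23, 95% interval -0.11 to 0.57). Without control replicate 2 and IF replicate 3 together, Tgfb3 was higher in PBMC-hCG than in IF by 0.38 (adjusted p = 0.0068 by limma). Control replicate 2 belongs to neither group and acts here only through the shared spread. This alternative was added after the data had been seen. With 1 library of the IF or PBMC-hCG group left out at a time, Tgfb3 passed in 0 of 10 fits (adjusted p = 0.0593 to 0.489 by limma).

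PBMC-hCG and control were compared to ask which genes still differed from untreated pregnancy. By limma, 5 of the 10 genes were higher than control at an adjusted p-value under 0.05, against 20.2% of all genes higher and 31.8% called in all. They were Ltbp1 (log2 fold change 0.81, adjusted p = 4.62e-07), Tgfb2 (0.68, adjusted p = 0.000123), Tgfb3 (0.56, adjusted p = 0.013), Smad3 (0.54, adjusted p = 3.24e-06) and Skil (0.42, adjusted p = 0.0416). Ltbp1, Tgfb2 and Smad3 lay above control in every library, 3 of 10 genes against 13.2% of all genes. For Tgfb3 the overlap came from control replicate 2, and the call was kept in all 10 fits that left out 1 library. The Skil call was lost in 8 of those 10 fits and with either other scaling (0.35, adjusted p = 0.121 with median ratios). Under median ratio scaling the calls across the table were 2797 higher and 2966 lower, against 3772 higher and 2169 lower as deposited.

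The other 5 genes had estimates above 0 that did not pass. Pmepa1 differed from control by 0.47 (95% interval -0.10 to 1.05, adjusted p = 0.199), and control replicate 5, at 14.3 TPM, lay within the PBMC-hCG range. Smad7 differed by 0.34 (95% interval -0.05 to 0.73), Tgfb1 by 0.30 (-0.03 to 0.63), Tgfbr2 by 0.27 (-0.05 to 0.58) and Tgfbr1 by 0.17 (-0.10 to 0.44) on the log2 scale. These intervals hold both 0 and the rise estimated for Skil (0.42). The comparison of IF with control and that of PBMC-hCG with IF share the IF libraries, so the fall of a gene in one is not independent of its rise in the other.

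**Figure D4:**
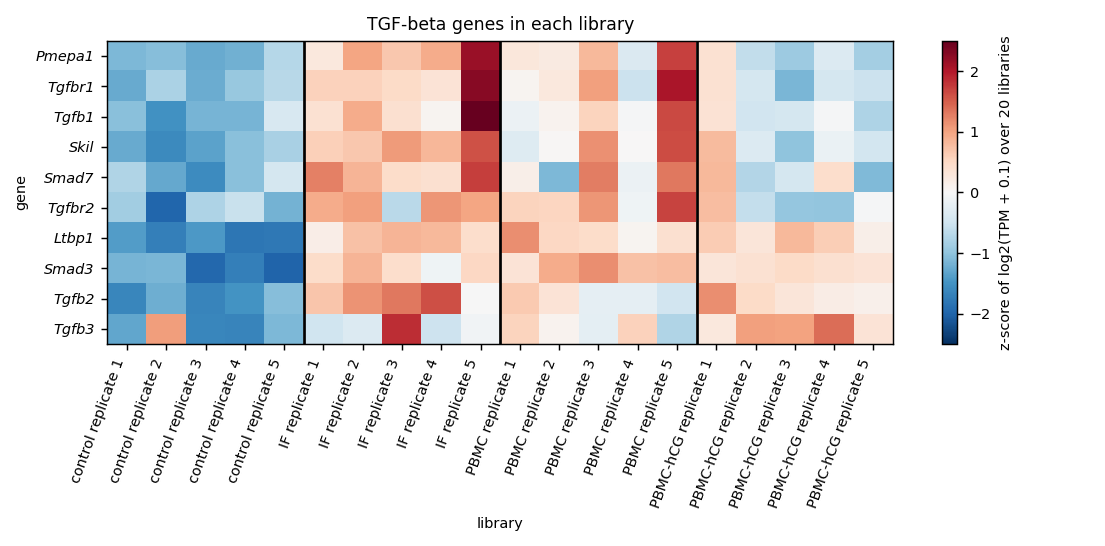
Log2(TPM + 0.1) of the 10 genes (rows) in the 20 libraries (columns, with lines between groups), as z-scores over the 20 libraries. The control columns are low for all genes except Tgfb3 in replicate 2. The lower rows (Ltbp1, Smad3, Tgfb2, Tgfb3) are above 0 in every PBMC-hCG library, with the lowest value at 0.13 (Tgfb2, replicate 5). The upper rows are below 0 there outside replicate 1, except for Smad7 in replicate 4 (0.43).

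In the PBMC group, which received cells cultured without hCG, 9 of the 10 genes were higher than control by limma, against 12.8% of all genes higher and 19.5% called in all, and 8 lay above control without overlap, against 8.65% of all genes. Pmepa1 was at 24.5, 23.8, 32.5, 17.2 and 52.6 TPM in PBMC replicates 1 to 5. All 5 were above control, with a wide spread, and the log2 fold change was 1.25 (SE 0.27, adjusted p = 0.00311), again the 1 gene of the 10 meeting the fold criterion (1.8% of all genes as rises). Skil, at 15.9, 17.8, 24.8, 17.6 and 28.8 TPM, differed from control by 0.74 (adjusted p = 0.00215). Smad7 was at 10.8, 7.48, 15, 9.93 and 15.2 TPM, and replicate 2 lay within the control range. Its log2 fold change of 0.54 (adjusted p = 0.0459) passed in 2 of 10 fits with 1 library left out and in neither fit with another scaling. Among all genes, 2400 were called higher and 1253 lower, and 1856 higher and 1676 lower after median ratio scaling.

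Ltbp1 was at 60.1, 50.6, 49.9, 45.1 and 49.2 TPM in PBMC replicates 1 to 5, and Smad3 at 46.1, 51.4, 53.7, 49.6 and 50 TPM. Both stood above all control libraries, with log2 fold changes of 0.81 and 0.65 (adjusted p = 3.89e-07 for both). Tgfbr2, at 269, 268, 311, 227 and 362 TPM, differed by 0.68 (adjusted p = 0.00359). Tgfbr1, at 28.6, 29.8, 35, 25.2 and 43.5 TPM, differed by 0.47 (adjusted p = 0.0143). For both receptors the 5 PBMC libraries were above the 5 control libraries, and replicate 5 was the highest. Among ligands, Tgfb1, at 41.7, 44.4, 50.1, 43 and 66.8 TPM, differed from control by 0.56 (adjusted p = 0.018). Tgfb2, at 24.4, 22.5, 19.5, 19.4 and 18.3 TPM, differed by 0.52 (adjusted p = 0.00175). Both lay above control in all libraries, whereas Tgfb3, at 30.4, 27.4, 25.4, 30.6 and 22.7 TPM, did not pass (0.31, adjusted p = 0.192) unless control replicate 2 was left out (0.47, adjusted p = 0.0148).

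PBMC was not distinguished from IF for any of the 10 genes at an adjusted p-value under 0.05, and limma called 0 of the 18706 genes (0%) in this comparison, against 1271 at a raw p-value under 0.05. It called 1 gene when every gene above 0 TPM in any library was tested. At a raw p-value under 0.05 1 of the 10 was lower, against 2.7% of all genes. That gene was Tgfb2, with a log2 fold change of -0.34 (95% interval -0.56 to -0.12, adjusted p = 0.623 by limma). For Pmepa1 the log2 fold change was -0.37 with a wide 95% interval (-0.94 to 0.21), and for the other genes the intervals lay between -0.66 (Smad7) and 0.35 (Tgfbr2).

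PBMC-hCG was not distinguished from PBMC for any of the 10 genes after adjustment either, and 2 genes passed across the table (0.0107%). At a raw p-value under 0.05, 3 of the 10 genes were lower in PBMC-hCG, against 7.51% of all genes lower. They were Pmepa1 (log2 fold change -0.78, 95% interval -1.35 to -0.21, adjusted p = 0.275), Tgfbr2 (-0.41, adjusted p = 0.281) and Tgfbr1 (-0.30, adjusted p = 0.289), all by limma. None of the 10 separated the groups without overlap, against 1.47% of all genes with PBMC-hCG below.

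The rest of the pathway was examined through 4 lists. Of 17 genes that act outside the cell on latent or free ligand, 6 rose in IF versus control and 0 fell at an adjusted p-value under 0.05 by limma, with 1 fall at a raw p-value, and of all genes 13.4% rose and 8.53% fell. Their median log2 fold change was 0.19, against 0.02 over all genes. The largest rises were those of Thbs1 (1.72, adjusted p = 0.00111), whose product thrombospondin 1 activates latent TGF-beta, Lrrc32 (1.43, adjusted p = 7.97e-05), whose product GARP presents latent ligand at the cell surface, and Dcn (0.84, adjusted p = 1.98e-06), encoding decorin, which binds the ligand. Thbs1 went from 34.4 to 79.4 TPM over the control libraries to 88.5 to 268 TPM over the IF libraries. In PBMC-hCG versus IF, where 7.61% of all genes rose and 5.99% fell, 0 of the 17 rose and 3 fell: Lrrc32 (-0.85, adjusted p = 0.0287), Vasn (-0.62, adjusted p = 0.0287), encoding a TGF-beta-binding membrane protein, and Furin (-0.25, adjusted p = 0.0325), encoding a protease that cleaves the ligand precursors.

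Among 8 receptors and coreceptors other than Tgfbr1 and Tgfbr2, which both rose, 1 rose and 2 fell in IF versus control, with a median of -0.09. Of all genes 8.53% fell. A share of 13.4% higher, as over all genes, would be about 1 of 8, so the count of rises is at the level of all genes. Eng, encoding the coreceptor endoglin, rose by 1.15 (adjusted p = 2.09e-05), from 74.1 to 120 TPM over control libraries to 187 to 301 TPM over IF libraries. Tgfbr3, encoding betaglycan, which presents ligand to the signalling receptors, fell by 0.55 (adjusted p = 0.000508) with no overlap, and Tgfbrap1, encoding a receptor-associated protein, fell by 0.65 (adjusted p = 0.00571). In PBMC-hCG versus IF, Eng was the 1 gene of the 8 that passed, which fell by 0.51 (adjusted p = 0.0371), against 5.99% of all genes lower.

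Of 20 genes acting inside the cell, 19 could be tested, 6 rose and 0 fell in IF versus control, against 13.4% and 8.53% of all genes, with a median of 0.18. The rises were small. Smurf1 (0.42, adjusted p = 2.3e-05), Smurf2 (0.33, adjusted p = 0.000873) and Rnf111 (0.28, adjusted p = 0.00394) were the largest, and all 3 encode ubiquitin ligases that act on SMAD proteins, their receptors or SKI and SKIL. None of the 19 passed in PBMC-hCG versus IF with limma, and 3 did at a raw p-value, all higher, against 20.7% of all genes higher.

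Of 27 known TGF-beta target genes, 26 could be tested, 10 rose and 3 fell in IF versus control, against 13.4% and 8.53% of all genes, with a median of 0.44. The share that fell was close to that of all genes. The rises were led by Tnc (2.54, adjusted p = 0.00515), encoding the matrix protein tenascin C, Lox (1.63, adjusted p = 2.64e-07), encoding a collagen cross-linking oxidase, and Sphk1 (1.52, adjusted p = 0.00163), encoding a sphingosine kinase. The falls were those of Nox4 (-0.85, adjusted p = 0.015), Postn (-0.58, adjusted p = 0.032) and Acta2 (-0.42, adjusted p = 0.0367), which encode an oxidase, periostin and smooth muscle actin. In PBMC-hCG versus IF, 0 rose and 5 fell, against 7.61% and 5.99% of all genes, with a median of -0.20, led by Tnc (-2.02, adjusted p = 0.0393), Sphk1 (-1.43, adjusted p = 0.0258) and Bhlhe40 (-1.23, adjusted p = 0.0287), encoding a transcription factor. Tnc, Sphk1 and Bhlhe40 are among the genes the study picked from these libraries, so this list is not independent evidence of its direction. Many of the listed genes respond to other signals too.

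**Figure D5:**
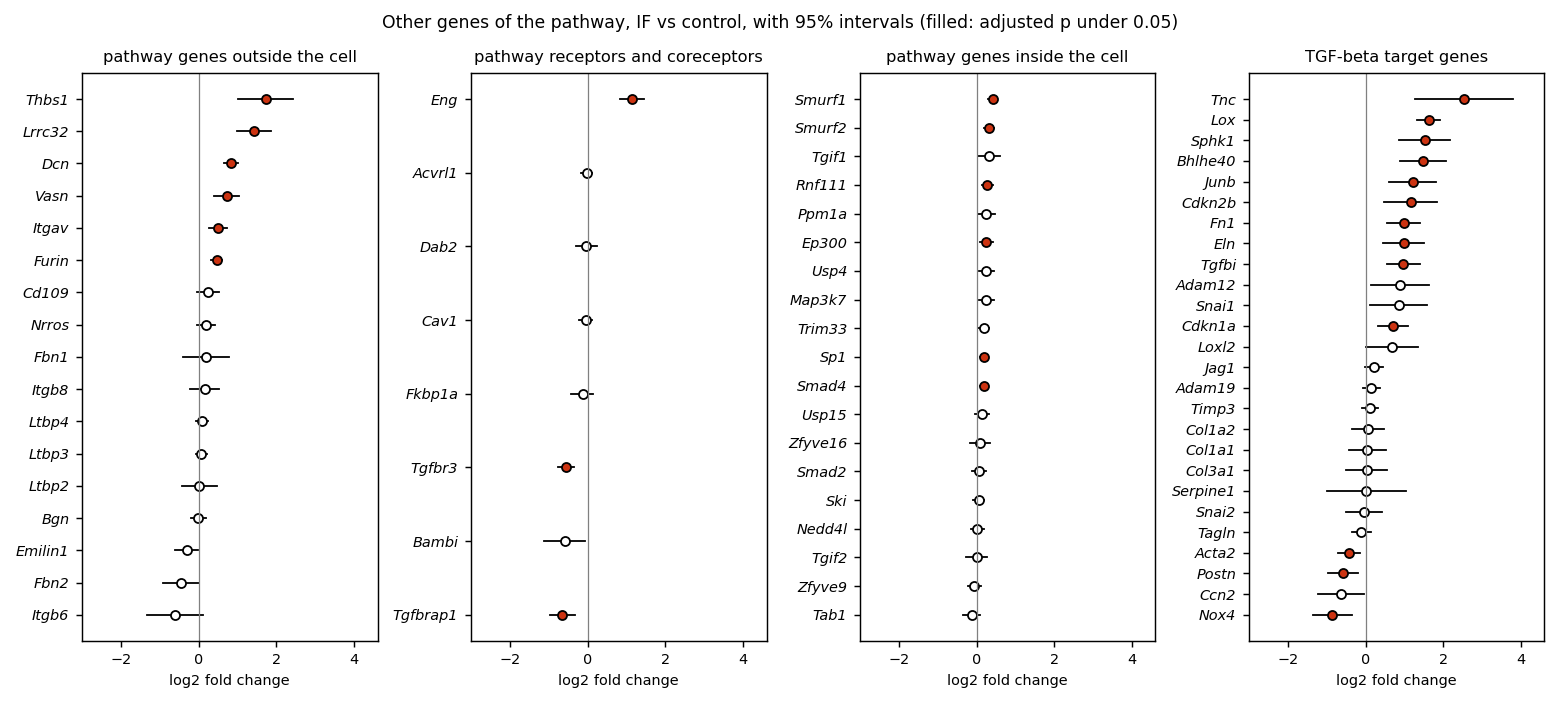
Log2 fold change in IF versus control (x axis) with 95% intervals for the tested genes of 4 pathway lists (panels, genes on the y axis), filled where the adjusted p-value was under 0.05. Rises predominate among the filled points outside the cell (6 of 6), inside the cell (6 of 6) and among targets (10 of 13). Among receptors and coreceptors, where Tgfbr1 and Tgfbr2 are not listed, 1 filled point is a rise and 2 are falls.

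The counts for these lists in PBMC-hCG versus IF moved with the same libraries as those for the 10 genes. Without IF replicate 2, 4 or 5 or PBMC-hCG replicate 2, 3, 4 or 5, 0 genes of the outside, receptor or target lists passed. With all libraries, 3 outside, 0 receptor and 3 target genes were higher in PBMC-hCG at a raw p-value under 0.05. Of all genes 20.7% were higher by that rule, and none of these lists exceeded that share. Without control replicate 2 and IF replicate 3 together, 7 outside, 3 receptor, 5 inside and 13 target genes passed. That fit called 6690 of all 18706 genes, against 2544 with all libraries, and was chosen after the data had been seen. Without replicate 5 of the IF and PBMC groups together 2 target genes passed, in a fit that called 635 genes. The list of targets also lost calls in IF versus control when the fit held those groups alone (8 of 26), as did the inside list (3 of 19).

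The other RU486 groups were compared with control in the same way. Of all genes 12.8% rose and 6.7% fell in PBMC, and 20.2% rose and 11.6% fell in PBMC-hCG. Of the outside genes 7 rose and 0 fell in PBMC and 6 rose and 1 fell in PBMC-hCG. The latter total was 3 without PBMC-hCG replicate 1 and 4 without control replicate 3 or 5 or PBMC-hCG replicate 2 or 4. Of the target genes 9 rose and 1 fell in PBMC and 6 rose and 3 fell in PBMC-hCG, where Tgfbi (1.44, adjusted p = 5.19e-05), encoding a TGF-beta-induced matrix protein, and Lox (1.31, adjusted p = 3.3e-06) led the rises. Both target shares in PBMC-hCG were close to those of all genes. Whether the PBMC and PBMC-hCG counts differ was not tested.

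Markers of other cell types moved with these results. In IF versus control, 7 of 8 endothelial markers rose and 0 fell, against 13.4% and 8.53% of all genes, and their summed level was 453 to 563 TPM in control and 624 to 714 TPM in IF libraries. Of 8 epithelial markers 6 rose and 1 fell, with sums of 805 to 1420 TPM in control and 1120 to 1430 TPM in IF libraries. Of 8 stromal markers 3 rose and 2 fell (sums 3280 to 5400 and 5340 to 6950 TPM), and of 13 macrophage and myeloid markers 3 rose (1110 to 1270 and 1160 to 1340 TPM). The low end of the control stromal range was replicate 2, and the other control libraries were at 4870 to 5400 TPM. Smooth muscle markers had 1 fall among 8 (2410 to 5460 and 2650 to 3600 TPM), and none of the markers of these 5 types was listed at 0 in any library. The part of these shifts in the rise of the 10 genes was not tested. Endothelial sums were 715 to 831 TPM in PBMC-hCG libraries, above every IF library. Smooth muscle sums were 2770, 2350, 2070, 2260 and 2380 TPM in PBMC-hCG replicates 1 to 5, below the IF range in all but replicate 1, the same library that reached into the IF range for Pmepa1 and Skil. In PBMC-hCG versus IF, 0 of 8 smooth muscle markers passed by limma and 3 were lower at a raw p-value, against 14.3% of all genes. The part of smooth muscle content in the lower Pmepa1 and Skil values was not tested.

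Blood cell markers were followed because PBMC had been injected. No lymphocyte marker of the 10 tested (of 13) passed in IF versus control, PBMC versus IF or PBMC-hCG versus IF by limma. At a raw p-value 1, 0 and 1 did, against 33.9%, 6.79% and 35% of all genes. Against control, 0 passed in PBMC and 3 rose in PBMC-hCG, Cd4 (0.68, adjusted p = 0.0109), Nkg7 (0.55, adjusted p = 0.025) and Ncr1 (0.51, adjusted p = 0.0399). Of 13 macrophage and myeloid markers, 2 rose in PBMC versus control, S100a9 (2.72, adjusted p = 0.000408) and S100a8 (1.64, adjusted p = 0.0129), and 3 in PBMC-hCG versus control. Of all genes 12.8% rose in PBMC and 20.2% in PBMC-hCG versus control. Both myeloid counts were near these shares, and the 3 of 10 lymphocyte markers are to be read against the 20.2%. S100a9 also rose in IF versus control (1.37, adjusted p = 0.0413), and Cd4, S100a8 and S100a9 were named after their values had been seen. The lymphocyte sums were 78.6 to 87.3 TPM in control, 68.8 to 123 TPM in IF, 66.7 to 111 TPM in PBMC and 93.9 to 130 TPM in PBMC-hCG libraries, and 3 of the 13 were at 0 in at least 1 library. Of 7 tested platelet and red cell markers, 2 fell in PBMC-hCG versus IF, against 5.99% of all genes. The sums over the list were 361 to 895 TPM in PBMC-hCG and 657 to 1830 TPM in IF libraries. Of the 9 listed, 2 were at 0 in at least 1 library. The part of blood content in the lower Pmepa1 and Skil values was not tested.

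The 10 genes were compared with each other over the libraries. As a measure of likeness, log2 values were scaled to z-scores over the 20 libraries and the root mean square difference between genes was taken, so that 0 is an identical pattern. Pmepa1 was nearest to Tgfbr1 (0.25), Tgfb1 (0.33) and Skil (0.33). Ltbp1 was nearest to Smad3 (0.45) and Tgfb2 (0.49). Tgfbr2 had its nearest gene at 0.58 (Skil) and Tgfb3 at 0.91 (Ltbp1), and Tgfb3 and Tgfbr2 were farthest apart (1.52). The libraries share groups, so these values describe the group means as well as the spread within groups.

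By the same measure, the nearest of 15761 other genes were named for each gene that passed in IF versus control. For Pmepa1 they were Vasn (0.26), Sipa1l2 (0.29) and Ttc9 (0.30), and Vasn was at 20.5, 34.3, 29.1 and 22 TPM in the control, IF, PBMC and PBMC-hCG means. For Skil they were Gadd45g (0.26), a stress-response gene with means of 59.5, 494, 246 and 147 TPM, Tlnrd1 (0.27) and Ackr3 (0.29). For Smad7 they were Nab2 (0.39), Coq10b (0.42) and Fosl2 (0.42). For Tgfb1 they were Hs6st1 (0.30), Serinc1 (0.30) and Sipa1l2 (0.31), so that Sipa1l2 was named for Pmepa1 and Tgfb1 alike. Tgfbr1 was nearest to Pi4k2a (0.30), Garem1 (0.32) and Rasa2 (0.34). Tgfbr2 was nearest to Synpo (0.32), Tnc (0.32) and Wnt4 (0.34), the last a Wnt ligand needed for decidualization, with means of 4.9, 25.5, 25.8 and 10.2 TPM.

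The genes named for Ltbp1, Smad3 and Tgfb2 had PBMC-hCG means nearer to IF than to control, as did Ltbp1, Smad3 and Tgfb2 themselves. They were picked for their likeness over the same libraries, so this follows from the choice and is no separate result. Among the genes nearest to Ltbp1 was Dstyk (0.27), at 14, 20.8, 21 and 20.8 TPM in the control, IF, PBMC and PBMC-hCG means. Smad3 was nearest to Ralgds (0.30), Thbd (0.32) and Steap3 (0.33), of which Steap3 was at 65.6, 225, 232 and 242 TPM. Tgfb2 was nearest to Phf8 (0.36), Lzts2 (0.37) and Mrvi1 (0.38), and Mrvi1 was at 60.3, 133, 112 and 125 TPM.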

How the data were processed

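The 20 libraries were grouped by the treatment in their labels. Reads were trimmed with Trimmomatic, mapped to mm10 with HISAT2 and assembled with StringTie by the authors (versions not given in the sources used here), and the deposited values are TPM per gene in a column for each library. TPM holds no read counts, so depth is unknown, no counting interval could be given, and the edgeR exact test of the study was not applicable. Values were taken as log2(TPM + 0.1), so fold changes of low genes are understated. Testing was limited to the 18706 genes with no value of 0 in any library and used limma 3.58.1 in R 4.3.3 (with data.table, version 1.17.8), with a variance trend and 4 groups in 1 fit. P-values were adjusted by Benjamini-Hochberg over all tested genes within each of 6 comparisons, with a threshold of 0.05. A second criterion, from the study's methods, was a fold change of at least 2 with a raw p-value under 0.05. The procedure was tested on simulated data. Replicates of a group correlated at 0.961 to 0.992 over genes, and no columns were identical.

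The 10 genes and all lists were chosen with earlier results of these data known. Named were all 10 genes. From each pathway list and comparison, up to 3 rises and 3 falls past the adjusted threshold with a mean of at least 1 TPM were named. Of each marker list, the 3 highest in mean TPM could be named. For each gene past the threshold in IF versus control, the 3 genes most alike were named, except that for Ltbp1 a part of this result is not reported here. Alternatives were pseudocounts of 0.01 and 1, other filters and scalings, fits of only 2 groups, no variance trend, a replicate block, a fold change of 1.5, and each library left out. Promoter windows are from RefSeq (GRCm38.p6), matched by gene, and primer positions from the GENCODE annotation of GRCm38. Figures were drawn with matplotlib 3.10.9 in Python 3.11.15.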

Additional observations from a re-analysis of the deposited data

Results flagged for a closer look

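Of the 40 sets of 5 libraries (10 genes in 4 groups), 6 held a library whose gap to its nearest neighbour was more than 0.71 of the whole range, where chance gives about 1 in 20. In the IF group, replicate 5 was high for Tgfb1 (88.4 TPM, next value 55.4 TPM), Tgfbr1 (45.6 TPM, next 31.9 TPM) and Pmepa1 (67.4 TPM, next 35.9 TPM). IF replicate 3 was high for Tgfb3 (40.7 TPM, next 26.4 TPM) and low for Tgfbr2 (196 TPM, next 297 TPM). Control replicate 2 was high for Tgfb3 (34 TPM, next 20.9 TPM). The causes of these values were not tested.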

How the results depend on the processing

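In IF versus control, PBMC versus IF, PBMC-hCG versus PBMC, PBMC versus control and PBMC-hCG versus control, the number of the 10 genes past the adjusted threshold stayed within 1.5 times its value under every alternative run. Leaving out 1 library gave 9 to 10, 0 to 0, 0 to 0, 8 to 9 and 4 to 5 genes. In PBMC-hCG versus IF the count of 2 was 1 without a filter and 4 with the replicate block. It was 1 without replicate 5 of IF and PBMC together and 6 without control replicate 2 and IF replicate 3 together. In the same order, these settings called 812, 3215, 635 and 6690 genes across the table, against 2544 in the main fit. With 1 library left out the count of the 10 genes was 0 to 6. The count meeting the fold criterion there was 0 to 1 with 1 library left out and 0 without replicate 5 of IF and PBMC together. With a fold change of 1.5 in place of 2, that criterion was met by 7 genes in IF versus control, 1 in PBMC-hCG versus PBMC, 5 in PBMC versus control and 2 in PBMC-hCG versus control. No call changed direction in these settings, and estimates that passed in neither fit changed sign 13 times with 1 library left out and 6 times in the other settings.

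Replicate numbers did not pair the libraries throughout: of 30 same-numbered pairs, correlations of deviations from group means were -0.25 to 0.46, 8 were above 0.1 and 7 libraries' best match had their own number. The highest were those of replicate 5 between control and IF (0.40), control and PBMC (0.27) and IF and PBMC (0.46), each a best match. The block added Tgfb1 (adjusted p = 0.0438) and Tgfbr1 (0.035) to the calls in PBMC-hCG versus IF and moved no other count of the 10 genes by more than 1.5 times. Both joint leave-outs were chosen after the data had been seen. Depth is unknown, and 5 libraries per group limit the precision.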

Other observations

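The share of each ligand in the summed ligand TPM differed in its median between groups. Tgfb1 made up 49.4% of the sum in the median control library, 49.7% in IF, 47.1% in PBMC and 41.3% in PBMC-hCG. Tgfb3 made up 29.1%, 24.1%, 29% and 35.5%, respectively, and its ranges overlapped between all groups (27.6 to 43.4% in control, 19.5 to 34.6% in IF and 27.4 to 36.3% in PBMC-hCG). Tgfb2 made up 20.8% in control, 25.4% in IF, 20.9% in PBMC and 24.3% in PBMC-hCG. These shares were not tested.

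The ratio of Smad3 to Smad7 TPM, a transducer and its inhibitor, had medians of 4.17 in control, 3.64 in IF, 4.27 in PBMC and 5.16 in PBMC-hCG libraries. The ranges overlapped, 3.24 to 4.84 in control, 2.78 to 3.95 in IF and 3.49 to 6.12 in PBMC-hCG, and the ratio was not tested.

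Spread within a group differed between genes. The coefficient of variation of Pmepa1 was 12.5% in control, 43.7% in IF, 45.5% in PBMC and 31.8% in PBMC-hCG, while that of Smad3 was 7.9%, 6.33%, 5.5% and 1.19%. Uterine transcription factors moved in IF versus control as well. Pgr, encoding the progesterone receptor that RU486 blocks and named after its value had been seen, rose by 1.71 on the log2 scale (adjusted p = 1.44e-07). Hoxa10 and Hoxa11 fell by 0.92 (adjusted p = 8.34e-05) and 1.09 (adjusted p = 3.96e-06) on the log2 scale and Esr1 rose by 0.51 (adjusted p = 5.98e-06).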
